A study of Mus musculus with 2 samples.

Results

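The 10 genes described here are the Tcf and Lef transcription factors Lef1, Tcf7, Tcf7l1 and Tcf7l2, their partner beta-catenin (Ctnnb1), and 5 genes of the Wnt response, Axin2, Nkd1, Lgr4, Rnf43 and Apcdd1. They were chosen by symbol, and each of the 10 matched 1 row of the 32285 genes of the matrices. The data were 2 droplet single-cell RNA libraries of dorsal skin from mice at postnatal day 3. The control library had the genotype Wildtype and the induced library miR-200b induced, while Dox was the treatment of each. Epidermal and dermal suspensions were joined at 30 to 70 before loading on the 10x Genomics 3′ v3.1 chemistry. The promoter that drives the induction, the number of animals in a library and their sex are not given in the sources used here. The series title concerns an effect of the microRNA-200 family on the choice of the sebaceous gland fate, through SOX9. The comparison here asks how Wnt transcription factors and response genes stood in each skin cell class of the 2 libraries.

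In the canonical Wnt pathway, a Wnt ligand binds a Frizzled receptor and an Lrp co-receptor, the complex that marks beta-catenin for destruction stalls, and beta-catenin enters the nucleus. There it binds Tcf and Lef proteins, which occupy DNA without it as well and then mostly repress. Lef1 and Tcf7 are best known as activating partners, Tcf7l1 as a repressor, and Tcf7l2 can act either way. In skin, Wnt signalling builds the hair placode, the dermal condensate and the hair shaft, and Tcf7l1 and Tcf7l2 are known from the outer root sheath and the follicle stem cells. Axin2, Nkd1, Rnf43 and Apcdd1 damp the pathway at the destruction complex, at Dishevelled, at the receptors and at the ligand-receptor step, and Axin2, Nkd1 and Rnf43 are widely used as readouts of it. Lgr4 is a receptor for R-spondins, which strengthen Wnt signals.

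The control library held 9072 barcodes and 100409201 unique molecular identifiers (UMIs, which count captured RNA molecules), and the induced library 9114 and 119705137. After the filters (at least 1000 UMIs, at least 500 genes, under 15% mitochondrial UMIs) and removal of likely doublets, 4816 and 4890 cells remained, whose median depths were 14584.5 and 17850.5 UMIs. The libraries shared 74 barcode sequences, 8 among kept cells. Gm13648, the transcript that spans the microRNA-200b locus, had 172 UMIs in control and 52153 in induced cells, which is in the direction of the labels. Its level in the induced library was 715 CPM (UMIs per 1000000) in basal epidermal-like, 472 CPM in outer root sheath-like and 36.8 CPM in fibroblast-like cells. Classes were rebuilt from marker genes, with the 10 genes left out of the clustering, and 3955 control and 4100 induced cells were epithelial. With 1 library a group there is no test between groups: values carry exact 95% intervals (Poisson for levels, conditional binomial for ratios, Clopper-Pearson for shares) that cover counting error only. Fewer molecules per cell and fewer expressing cells cannot be told apart in a summed level. Where a pair of values is given the control library comes first, and a log2 ratio is that of induced over control CPM, so that a negative value is lower in the induced library.

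The induced microRNA and its close relatives are shown because their seeds (bases 2 to 8, in capitals) set which 7-base words were looked for in the 10 genes. All 3 are encoded on the minus strand of chromosome 4 (GRCm38.p6, RefSeq), miR-200b-3p at chr4:156055685-156055706. miR-200b-3p and miR-429-3p share a seed, and that of miR-200a-3p differs from it.
miR-200b-3p: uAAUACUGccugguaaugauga
miR-429-3p: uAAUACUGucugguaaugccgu
miR-200a-3p: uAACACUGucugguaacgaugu

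The word CAGTATT, which pairs with the first seed, stood in 13.4% of 20829 annotated mouse 3′ untranslated regions (longest per gene, GENCODE vM21), and CAGTGTT, for miR-200a-3p, in 17.2%. Of the 10 genes, Apcdd1 held CAGTATT, at 1 place in a region of 8901 bases. Nkd1 and Lgr4 each held CAGTGTT once. The longest annotated regions of the other 7 genes held neither word. The stretches of Nkd1 and Lgr4 are shown with the word in capitals, at chr8:88592535-88592541 and chr2:110013232-110013238 (GRCm38, plus strand).
Nkd1: ctgctacctctCAGTGTTatctggttcaa
Lgr4: gattcccctctCAGTGTTtgacaatcgca
A word of this kind is a match of letters only, and no binding was measured.

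Tcf and Lef proteins bind DNA at words such as CTTTGAA, or its variant CTTTGAT, and likewise at the word CTTTGTA or its variant CTTTGTT. These were searched on both strands of RefSeq promoter windows of 300 bases, from 250 before to 50 after a start site. At least 1 of them stood in 16.9% of 32851 mouse windows. The table held 16 windows for 9 of the 10 genes, and 2 windows held a word. These are shown, word in capitals, because they are the windows of the 10 genes in which the factors' own word was found. For Lef1 it is the fourth start site, chr3:131156044-131156343, with TACAAAG, the reverse complement of CTTTGTA, beginning 147 bases before the start. For Tcf7l2 it is the second, chr19:55895071-55895370, with the word 14 bases before the start (both GRCm38.p6, plus strand, inside the gene).
Lef1: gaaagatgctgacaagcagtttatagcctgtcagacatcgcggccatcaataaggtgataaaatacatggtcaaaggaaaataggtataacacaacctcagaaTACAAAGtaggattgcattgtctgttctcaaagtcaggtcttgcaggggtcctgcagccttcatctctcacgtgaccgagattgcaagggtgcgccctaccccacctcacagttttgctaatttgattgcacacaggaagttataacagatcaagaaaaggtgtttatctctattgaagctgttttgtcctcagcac
Tcf7l2: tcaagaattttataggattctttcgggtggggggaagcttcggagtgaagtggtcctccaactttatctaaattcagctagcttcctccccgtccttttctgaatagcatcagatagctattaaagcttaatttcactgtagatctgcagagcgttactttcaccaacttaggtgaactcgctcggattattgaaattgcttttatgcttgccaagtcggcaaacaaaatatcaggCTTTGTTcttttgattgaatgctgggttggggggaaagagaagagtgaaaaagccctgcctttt
The 3′ libraries do not tell which start site an RNA came from.

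Lef1 (chr3:131110471-131224356, plus strand, GRCm38) was highest in dermal papilla-like cells, the mesenchymal signalling centre at the base of the follicle. It stood there at 309 CPM (246 to 383) in the control library and 412 CPM (330.1 to 507) in the induced library. Hair matrix-like cells, the dividing precursors of the shaft, followed with 124 and 207 CPM, and the intervals of these 2 classes did not overlap in either library. Melanocyte-like cells came next among classes of at least 20 cells in both libraries, with 41.02 and 19.99 CPM. In the induced library their interval overlapped those of fibroblast-like (19.3 CPM) and outer root sheath-like cells. Basal epidermal-like cells had 22.02 and 9.30 CPM and outer root sheath-like cells 9.20 and 19.00 CPM, so the order of these 2 classes was opposite in the 2 libraries. Spinous epidermal-like cells stood at 1.03 and 0.161 CPM, on 6 and 2 UMIs. No Lef1 UMI was found in myeloid-like cells, which allows up to 6.56 and 6.27 CPM (3 UMIs of the class total).

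Tcf7 (chr11:52252371-52283014, minus strand) was also highest in dermal papilla-like cells, at 66.97 and 74.8 CPM, where its intervals overlapped those of melanocyte-like cells (41.02 and 36.4 CPM) in both libraries. Endothelial-like and fibroblast-like cells stood between 21.9 and 24.8 CPM. Of the epithelial classes, outer root sheath-like cells had 9.56 and 13.5 CPM, basal-like cells 3.94 and 8.10 CPM and hair matrix-like cells 39.8 and 16.5 CPM.

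Tcf7l1 (chr6:72626378-72789254, minus strand) and Tcf7l2 (chr19:55741820-55933654, plus strand) were highest, among the larger epithelial classes, in those of the follicle. Tcf7l1 stood at 52.5 CPM (49.5 to 55.6) in the control library and 29.7 CPM (27.5 to 32.1) in the induced library in outer root sheath-like cells, at 38.4 and 19.4 CPM in companion layer-like cells and at 5.73 and 8.32 CPM in basal-like cells. In the dermis it was highest in mural-like cells, at 49.96 and 84.5 CPM. That class joins cluster N8, with Rgs5 raised, to clusters N14 and N16, where Acta2, Tagln and Mylk were raised but not Rgs5. Tcf7l2 was highest of all control classes in the outer root sheath-like cells, with 205 CPM (199 to 211), and stood apart from companion layer-like cells at 126 CPM (112 to 141). In the induced library its highest levels were in mural-like (177 CPM) and endothelial-like cells (154 CPM), whose intervals overlapped. Basal-like cells had 33.9 and 29.04 CPM and spinous-like cells 13.7 and 8.72 CPM.

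Ctnnb1 (chr9:120929216-120960507, plus strand) encodes beta-catenin, which serves both the pathway and adherens junctions, and it was found in every class. Control hair matrix-like (1006 CPM) and melanocyte-like cells (970.1 CPM) were highest with overlapping intervals. Myeloid-like cells were lowest, at 120.2 and 115 CPM, though in the control library their interval overlapped that of granular epidermal-like cells. Outer root sheath-like cells stood at 487 and 510.3 CPM and basal-like cells at 297 and 293 CPM.

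Axin2 (chr11:108920349-108950783, plus strand) was spread widely at low levels. In the control library fibroblast-like (75.5 CPM, interval 66.8 to 85.1) and Schwann-like cells (72.3 CPM, interval 45.8 to 108) were highest, and in the induced library hair matrix-like (72.7 CPM, interval 54.4 to 95.1) and dermal papilla-like cells (65.5 CPM, interval 35.8 to 109.9). Upper follicle-like cells had 34.98 and 32.1 CPM, more than the 15.8 and 20.7 CPM of the outer root sheath-like cells. Nkd1 (chr8:88521354-88594884, plus strand) was narrower. It stood at 130.2 and 149.7 CPM in dermal papilla-like, 104 and 76.3 CPM in fibroblast-like and 47.2 and 112 CPM in melanocyte-like cells, and at 182 CPM in the 31 control Schwann-like cells. Among the larger epithelial classes, outer root sheath-like cells had 8.25 and 3.24 CPM and basal-like cells 1.07 and 0.514 CPM, while hair matrix-like cells had 54.3 and 46.6 CPM.

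Lgr4 (chr2:109917647-110014257, plus strand) was highest in outer root sheath-like cells, at 153 and 169.5 CPM, with companion layer-like (146 and 149.9 CPM) and dermal papilla-like cells (112 and 136 CPM) next and each neighbour overlapping the other. Rnf43 (chr11:87662722-87735539, plus strand), the ubiquitin ligase that removes Frizzled receptors and is held off by R-spondin bound to Lgr proteins, was almost wholly epithelial, with 1500 and 1454 UMIs in epithelial against 3 and 4 UMIs in all other cells. Hair matrix-like cells had 31.95 and 39.8 CPM, outer root sheath-like cells 19.4 and 19.3 CPM and basal-like cells 18.8 and 15.99 CPM. Of the 346 control and 168 induced fibroblast-like cells none had an Rnf43 UMI, which allows up to 0.836 and 2.63 CPM (3 UMIs of the class total).

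Apcdd1, a membrane protein that binds Wnt ligands and Lrp receptors and whose human counterpart is mutated in a hereditary hair loss, was found over a wide range of levels. Dermal papilla-like cells had 733 CPM (634 to 843) in the control library and 1646 CPM (1479 to 1828) in the induced library. Next came fibroblast-like cells, at 475 and 237 CPM, which in the induced library did not differ from hair matrix-like cells (211 CPM) beyond their intervals. In the epithelium basal-like (145 and 52.1 CPM) and upper follicle-like cells (136 and 89.96 CPM) stood above outer root sheath-like cells (57.6 and 54.5 CPM) in the control library. Melanocyte-like cells had 2.05 and 2.05 CPM, on 2 and 4 UMIs.

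**Figure D1:**
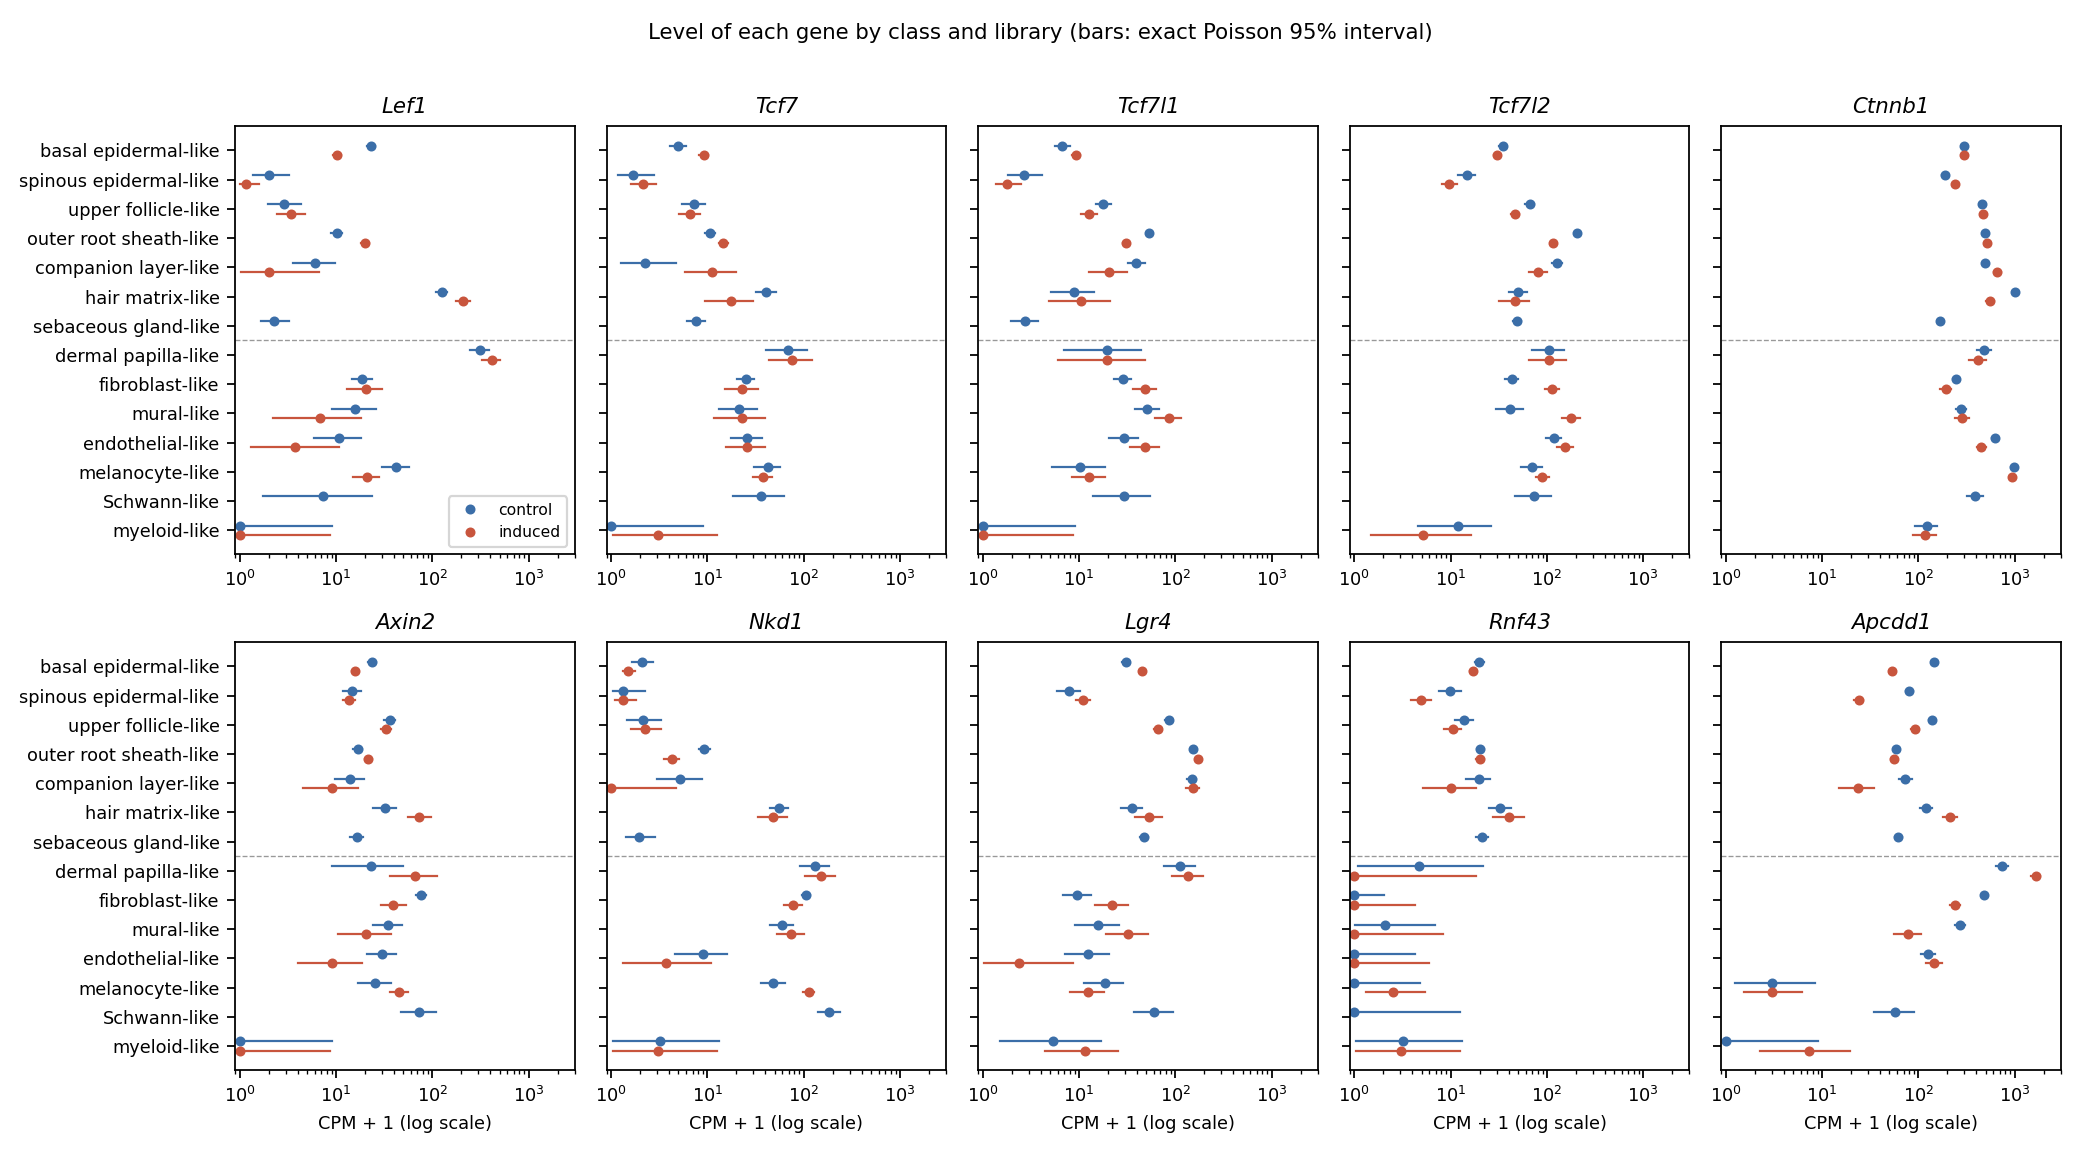
Level of each gene (CPM plus 1, log scale) in 14 classes of the control (blue) and induced (red) libraries; points are summed levels and bars exact Poisson 95% intervals, and a class with under 20 cells in a library has no point. Lef1 and Apcdd1 peak in dermal papilla-like cells, Tcf7l2 and Lgr4 in the control library in outer root sheath-like cells, and Rnf43 is near 0 below the dashed line, where the dermal classes begin.

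Over all epithelial cells none of the 9 genes that reached a mean of 5 CPM differed by over 2-fold between the libraries (CPM plus 2 in both), where 8.6% of 9907 genes with that mean did. Tcf7l2 came nearest. It stood at 96.7 CPM (94.5 to 98.9) in the control library and 47.96 CPM (46.6 to 49.3) in the induced library (log2 ratio -1.01, interval -1.07 to -0.96). Apcdd1 (104 and 55.8 CPM, log2 ratio -0.90, interval -0.95 to -0.85) and Tcf7l1 (20.9 and 12.2 CPM, log2 ratio -0.77, interval -0.88 to -0.66) were lower in the induced library as well. Nkd1 did not reach the mean, with 5.10 and 2.14 CPM. Lef1 had 12.5 and 11.7 CPM, and its log2 ratio an interval spanning 0 (log2 ratio -0.10, interval -0.22 to 0.03), and Ctnnb1 359.8 and 355 CPM. These sums mix classes whose shares differed between the libraries. Of the kept cells, 844 control and 1545 induced cells were basal-like, 1460 and 1200 outer root sheath-like, and 429 and 16 sebaceous gland-like. With equal weight given to the basal, outer root sheath, upper follicle and spinous-like classes, the log2 ratio of Tcf7l2 (CPM plus 2) went from -0.98 to -0.66. Without sebaceous gland-like cells it was -1.08, past 2-fold.

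**Figure D2:**
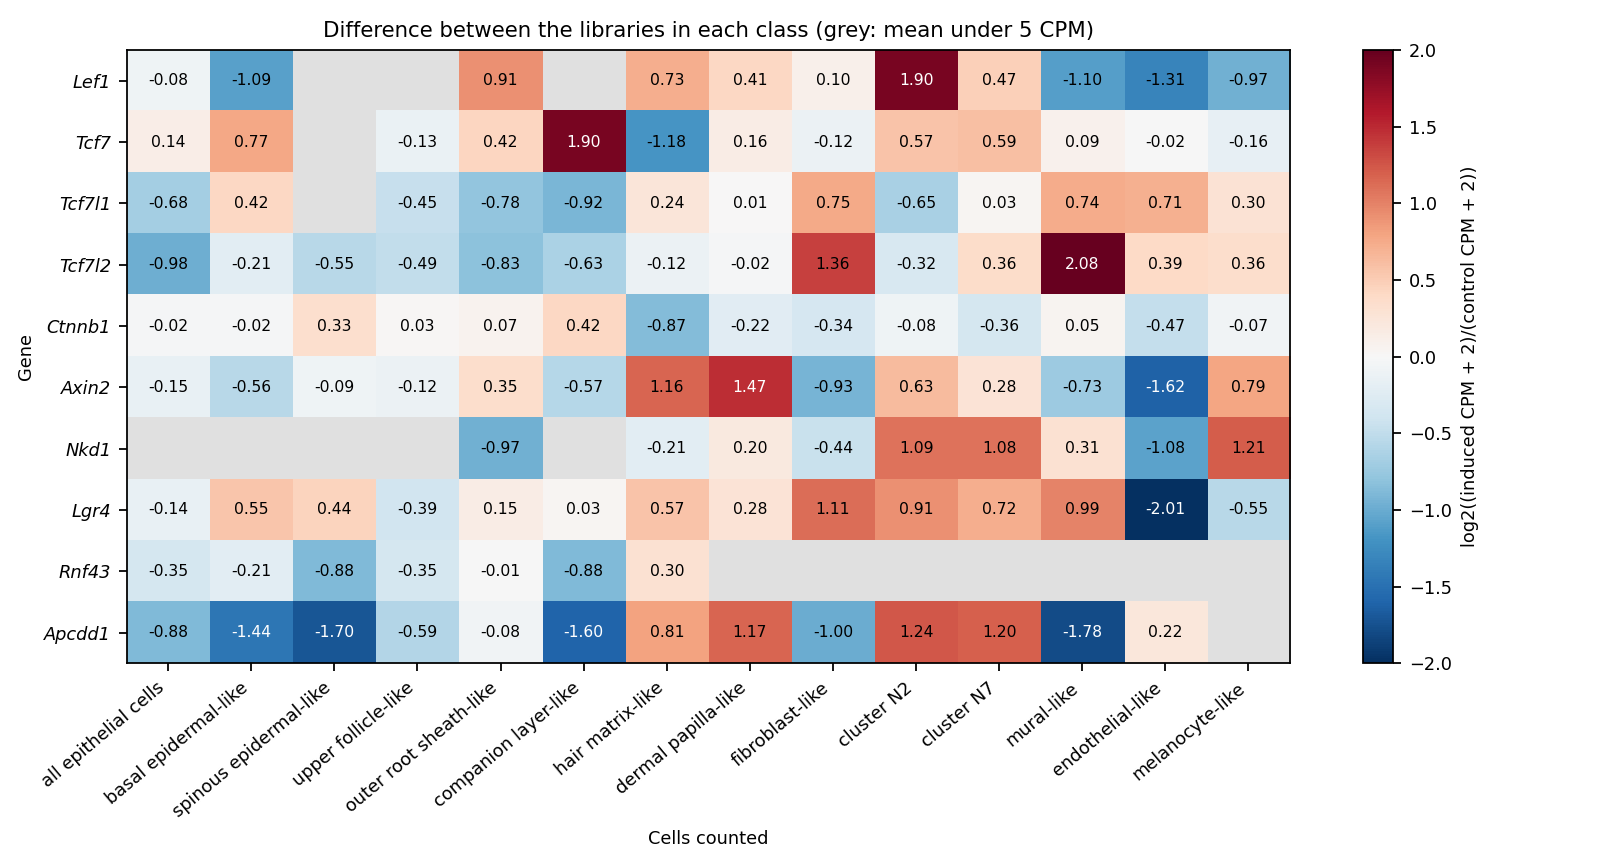
Log2 ratio of induced over control (CPM plus 2) for each gene (rows) in the cells named below each column; red is higher and blue lower in the induced library, and grey marks a mean under 5 CPM. Apcdd1 runs from -1.78 in mural-like cells to 1.24 in cluster N2, Lef1 from -1.31 in endothelial-like cells to 1.90 in cluster N2, and Ctnnb1 from -0.87 in hair matrix-like to 0.42 in companion layer-like cells.

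In basal epidermal-like cells, the dividing layer of the epidermis, Lef1 and Apcdd1 were both past 2-fold lower in the induced library. Lef1 stood at 22.02 CPM (19.8 to 24.4) in the control library and 9.30 CPM (8.39 to 10.3) in the induced library, on 369 and 380 UMIs (log2 ratio -1.24, interval -1.45 to -1.03). Apcdd1 stood at 145 CPM (139 to 151) in the control library and 52.1 CPM (49.9 to 54.4) in the induced library (log2 ratio -1.48, interval -1.56 to -1.39). These were 2 of the 9 genes that reached the mean of 5 CPM, where 7.3% of all genes with that mean were past 2-fold. Axin2 was lower by less, 22.8 and 14.8 CPM with a log2 ratio of -0.62 (-0.81 to -0.43). Lgr4 (29.5 and 44.2 CPM, log2 ratio 0.58, interval 0.44 to 0.73) and Tcf7 (3.94 and 8.10 CPM, log2 ratio 1.04, interval 0.66 to 1.44) were higher in the induced library. Ctnnb1 had 297 and 293 CPM, with a log2 ratio of -0.02 (-0.07 to 0.03).

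The basal-like class was made of 7 clusters, each with at least 20 cells in both libraries. Apcdd1 was lower in the induced library in 7 of 7, between 95.7 and 243 CPM in the control library and between 36.2 and 91.1 CPM in the induced library, so that the ranges of the libraries did not overlap. Axin2 was lower in 7 of 7 and Lgr4 higher in 7 of 7, with overlapping ranges. Lef1 was lower in 5 of 7. The exceptions were cluster E3, led by Ccl27a, Slco2a1 and Pou3f1 (7.90 and 8.39 CPM), and cluster E5, led by Krt16 and H19 (1.70 and 2.62 CPM). Most control cells of the class lay in clusters E4, E5 and E3 and most induced cells in E1, E3 and E6. Across 5 other ways of filtering or clustering, the log2 ratio (CPM plus 2) ran from -1.35 to -0.87 for Lef1 and from -1.53 to -1.35 for Apcdd1. Lef1 was thus not past 2-fold in every setting. The 11 basal marker genes together stood at 46622 CPM in control and 25662 CPM in induced basal-like cells, all detected, and the 9 outer root sheath markers at 2336 and 3394 CPM. Their part in the differences of Lef1 and Apcdd1 was not tested.

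Spinous epidermal-like cells, the layer above, showed the same side for Apcdd1, at 79.5 CPM (72.4 to 87.1) in the control library and 23.01 CPM (20.4 to 25.8) in the induced library (log2 ratio -1.79, interval -2.01 to -1.57), and in both clusters of the class. It was 1 of 6 genes with the mean of 5 CPM (9.84% of all such genes were past 2-fold). Rnf43 was 8.93 and 3.96 CPM there (log2 ratio -1.17, interval -1.77 to -0.58), but the libraries filled the 2 clusters unequally, with 98 control and 107 induced cells in E21 and 30 and 153 in E24. It stood at 12.1 and 5.01 CPM in E21 and at 4.23 and 3.38 CPM, on 10 and 27 UMIs, in E24. In upper follicle-like cells none of 8 genes was past 2-fold (8.07% of all genes), with Apcdd1 at 136 and 89.96 CPM (log2 ratio -0.60, interval -0.74 to -0.45), Tcf7l2 at 65.01 and 45.7 CPM (log2 ratio -0.51, interval -0.72 to -0.30) and Axin2 at 34.98 and 32.1 CPM (log2 ratio -0.12, interval -0.39 to 0.14). Clusters differed here too, with 31 control and 5 induced cells in E34 and 1 and 27 in E37. Of the 3 clusters with at least 20 cells in both libraries, Apcdd1 was lower in the induced library in E22 and E26 and stood at 28.6 and 34.9 CPM in E25.

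In outer root sheath-like cells Lef1 lay on the other side. It stood at 9.20 CPM (7.98 to 10.6) in the control library and 19.00 CPM (17.2 to 20.9) in the induced library, on 203 and 416 UMIs (log2 ratio 1.05, interval 0.80 to 1.30). Tcf7l1 and Tcf7l2 were lower in the induced library, Tcf7l1 at 52.5 and 29.7 CPM (log2 ratio -0.82, interval -0.96 to -0.68) and Tcf7l2 at 205 CPM (199 to 211) in the control library and 115 CPM (111 to 119.7) in the induced library (log2 ratio -0.84, interval -0.91 to -0.77). None of these passed 2-fold once 2 CPM were added, and none of the other 7 genes did, against 8.18% of all genes in the class. Axin2 was 15.8 and 20.7 CPM (log2 ratio 0.39, interval 0.19 to 0.60) and Nkd1 8.25 and 3.24 CPM (log2 ratio -1.35, interval -1.76 to -0.94), so these feedback genes did not lie on one side. Ctnnb1 (log2 ratio 0.07, interval 0.03 to 0.11), Rnf43 (log2 ratio -0.01, interval -0.21 to 0.19) and Apcdd1 (log2 ratio -0.08, interval -0.20 to 0.04) had log2 ratios near 0, and Lgr4 stood at 153 and 169.5 CPM.

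In all, 9 of the 10 outer root sheath-like clusters held at least 20 cells of both libraries. Tcf7l2 was lower in the induced library in 9 of 9, between 126 and 295 CPM in the control library and between 64.7 and 223 CPM in the induced library, and Tcf7l1 in 7 of 9. Lgr4 was higher in 8 of 9 and Tcf7 in 8 of 9. Lef1 was higher in 6 of 9, most in cluster E20, led by Bdnf and Ier3, at 1.67 and 20.4 CPM on 3 and 25 UMIs. It was lower in E2 (dividing cells), E17 and E19. Its direction rests on few molecules in E11 (3 and 1 UMIs), E17 (7 and 1) and E19 (6 and 1). Apcdd1 was lower in 8 of 9 although the class level hardly differed: cluster E7, with Pthlh and Fst among its leading genes and the highest Apcdd1, held 83 control and 277 induced cells. The class was drawn from different clusters in the libraries, with E2, E11 and E17 the largest in control and E7, E8 and E14 in induced cells. Across the 5 other settings the log2 ratio (CPM plus 2) of Lef1 ran from 0.44 to 0.98, that of Tcf7l2 from -1.001 to -0.62 and that of Apcdd1 from -0.79 to 0.56, across 0.

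**Figure D3:**
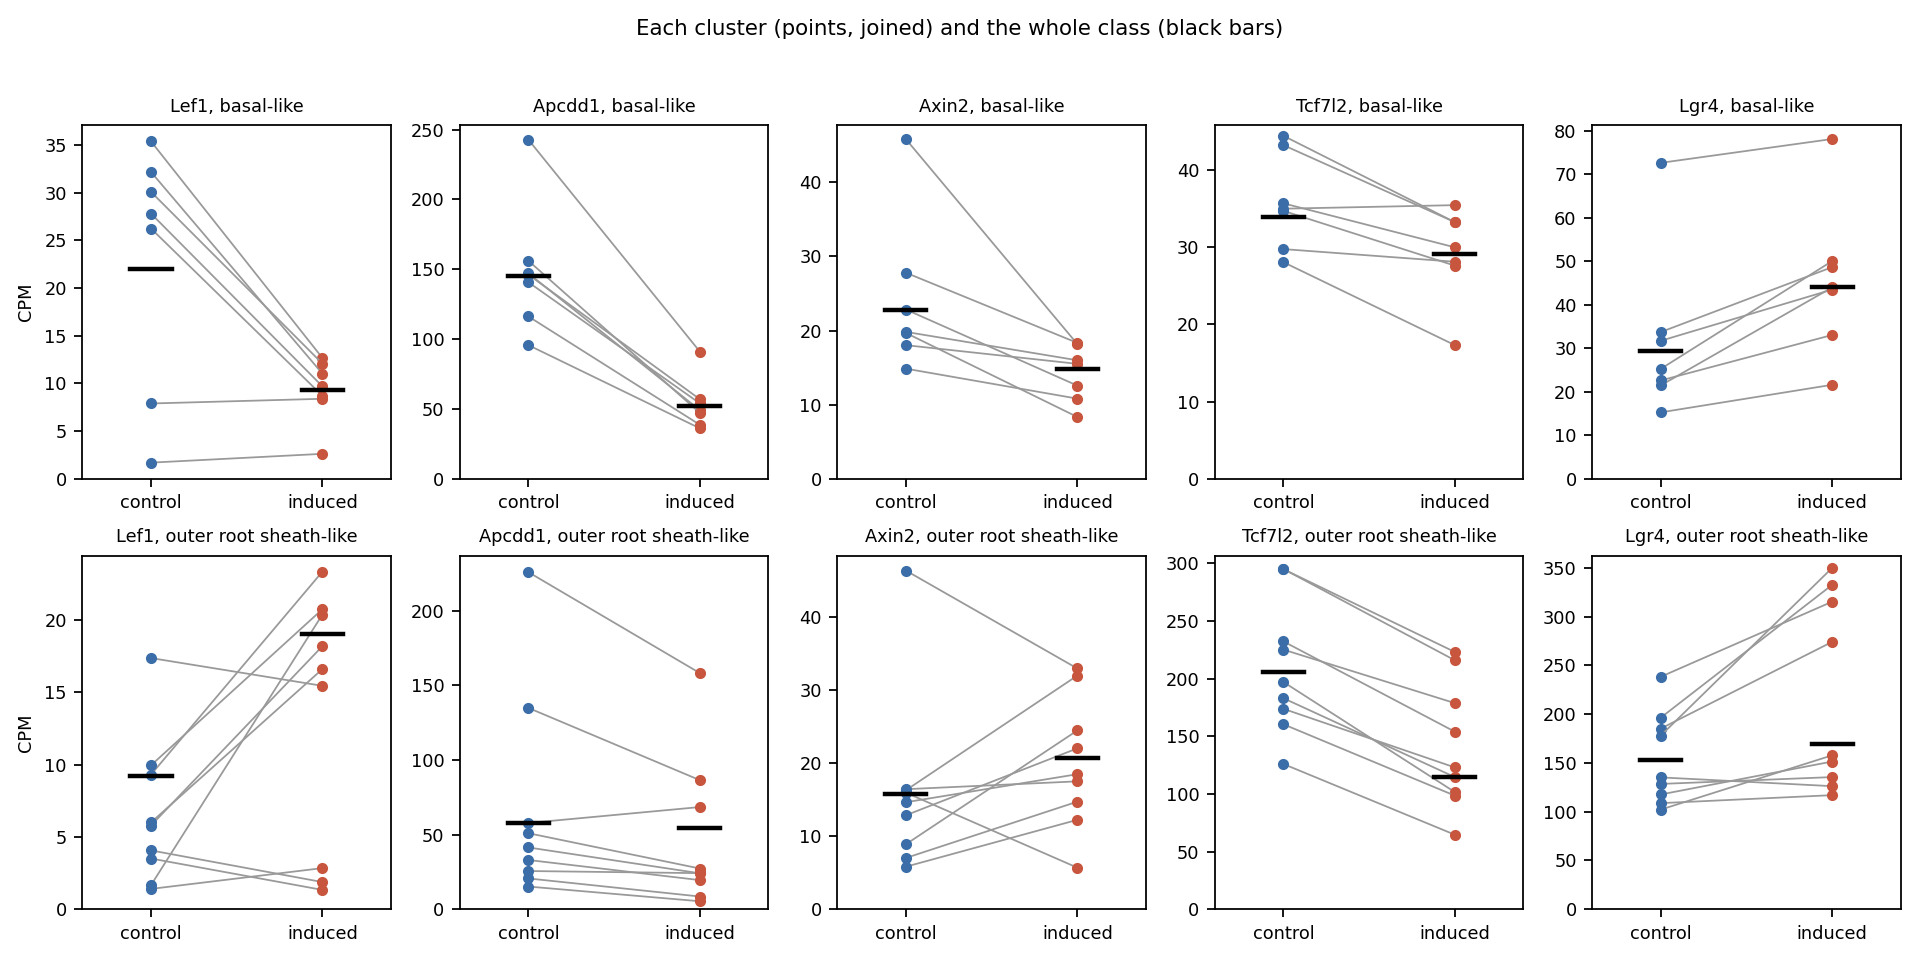
Level (CPM) of 5 genes in each cluster of the basal epidermal-like (upper row) and outer root sheath-like (lower row) classes with at least 20 cells in both libraries; joined points are 1 cluster and black bars the whole class. Apcdd1 is lower in the induced library in 7 of 7 basal-like clusters and Tcf7l2 in 9 of 9 outer root sheath-like clusters. Lef1 is lower in 5 of 7 basal-like and higher in 6 of 9 outer root sheath-like clusters.

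Hair matrix-like cells were few (57 control and 39 induced) and almost wholly in separate clusters, E41 and E44 in control and E42 in induced cells, so a class difference there cannot be told apart from a difference between clusters. Lef1 stood at 124 and 207 CPM, Axin2 at 31.4 and 72.7 CPM and Apcdd1 at 119.98 and 211 CPM, with Ctnnb1 at 1006 and 549.9 CPM. Companion layer-like cells (39 and 24) had Apcdd1 at 72.1 CPM (61.7 to 83.8) in the control library and 22.4 CPM (14.1 to 33.96) in the induced library. They too lay in different clusters, with 23 control and 2 induced cells in E38, 14 and 10 in E39 and 2 and 12 in E40, so no class difference is read there. Sebaceous gland-like cells were nearly all from the control library, where Tcf7l2 stood at 48.1 CPM, Lgr4 at 46.4 CPM, Apcdd1 at 60.5 CPM, Rnf43 at 20.1 CPM, Axin2 at 15.4 CPM and Lef1 at 1.29 CPM.

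In the dermis, Apcdd1 and Axin2 stood higher in the dermal papilla-like cells of the induced library, and Lef1, the level of which is highest there, did not differ beyond its counting interval. Apcdd1, whose levels there are given above, had a log2 ratio of 1.17 (0.91 to 1.43). Axin2 was 22.3 and 65.5 CPM, on 6 and 14 UMIs (log2 ratio 1.55, interval 0.08 to 3.22). These were 2 of 9 genes with a mean of 5 CPM, where 29.8% of all such genes were past 2-fold in this small class, so the share is close to the background. Lef1 (log2 ratio 0.41, interval -0.03 to 0.86), Tcf7 (log2 ratio 0.16, interval -0.91 to 1.21), Nkd1 (log2 ratio 0.20, interval -0.54 to 0.93) and Lgr4 (log2 ratio 0.28, interval -0.51 to 1.07) had intervals of the log2 ratio that included 0. The class held 43 control and 85 induced cells with medians of 5844 and 1790 UMIs. Its 9 markers summed to 3308 and 2773 CPM, all detected in both libraries, and the 11 spinous keratinocyte markers to 707 and 2259 CPM. The part of depth and of keratinocyte RNA in these values was not tested.

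In fibroblast-like cells Apcdd1 was lower in the induced library over the class and higher in N2, its one cluster with at least 20 cells of each library, and Tcf7l2 was higher over the class, while its interval in that cluster spanned 0. Over the class, Tcf7l2 stood at 42.4 CPM (35.9 to 49.6) in the control library and 112 CPM (93.6 to 133) in the induced library (log2 ratio 1.41, interval 1.05 to 1.75). It and Lgr4 (8.64 and 21.04 CPM, log2 ratio 1.28, interval 0.45 to 2.10) were past 2-fold higher in the induced library, 2 of 9 genes with a mean of 5 CPM against 17.1% of all such genes. Apcdd1 was 475 CPM (453 to 498) in the control library and 237 CPM (209 to 267) in the induced library (log2 ratio -1.01, interval -1.20 to -0.82), and Axin2 75.5 and 38.6 CPM (log2 ratio -0.97, interval -1.46 to -0.51). The libraries filled the class with different clusters. Cluster N4, led by Chodl, Itih5 and Col6a3, held 143 control and 6 induced cells, and cluster N11, led by Lpl, Dcn and Col3a1, 3 and 76. Apcdd1 stood at 658 CPM in control N4 and at 38.3 CPM in induced N11, and Tcf7l2 at 20.1 and 147 CPM. With each library clustered by itself, 0 of 9 genes were past 2-fold in the class, against 11.1% of all genes.

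Cluster N2, led by Mfap4, Col1a1 and Col1a2, was the fibroblast-like cluster with at least 20 cells of both libraries (104 and 74). There Apcdd1 stood at 202 CPM (174 to 233) in the control library and 478 CPM (414 to 551) in the induced library (log2 ratio 1.25, interval 0.95 to 1.54). Nkd1 was 58.7 and 128 CPM (log2 ratio 1.12, interval 0.54 to 1.69) and Lef1 6.41 and 29.4 CPM, on 6 and 12 UMIs (log2 ratio 2.20, interval 0.67 to 3.90). These 3 of 9 genes were past 2-fold higher, where 15.6% of all genes with a mean of 5 CPM were past 2-fold either way and the median gene was 0.12 higher on the log2 scale (CPM plus 2). Tcf7l2 was 76.9 and 61.3 CPM (log2 ratio -0.33, interval -1.04 to 0.35), with an interval that spans 0, and Axin2 50.2 and 78.5 CPM (log2 ratio 0.65, interval -0.05 to 1.32). Cluster N7, an unnamed dermal cluster led by Ndnf, Twist1 and Eln (34 and 77 cells), had Apcdd1 at 649 and 1495 CPM (log2 ratio 1.20, interval 0.98 to 1.43) and Nkd1 at 156 and 332 CPM (log2 ratio 1.09, interval 0.62 to 1.58), 2 of 9 genes past 2-fold against 21.2% of all. In cluster N3, led by Mfap4, Ifitm1 and Eln, Apcdd1 stood at 187 and 202 CPM (log2 ratio 0.11, interval -0.42 to 0.61).

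Keratinocyte RNA differed between the libraries in these cells. The 11 basal keratinocyte markers, all detected, summed to 388 CPM in control and 1535 CPM in induced fibroblast-like cells, and the 10 adipocyte markers to 223 CPM (6 at 0, Adipoq among them) and 6108 CPM (none at 0). In cluster N2 the basal keratinocyte markers were nearer, 525 and 606 CPM, as were the adipocyte markers, 618 and 658 CPM. The 10 fibroblast markers summed to 147920.0 and 90195 CPM there. The part of these in the results was not tested.

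Mural-like cells had Tcf7l2 at 40.4 and 177 CPM (log2 ratio 2.13, interval 1.57 to 2.72), and Lef1 (14.9 and 5.90 CPM) and Apcdd1 (269 and 76.7 CPM) were past 2-fold lower in the induced library, which made 3 of 9 genes past 2-fold (22.7% of all genes). Lef1 rests on 14 and 3 UMIs there, with intervals that overlap, and was not past 2-fold in the cluster N8 described next, on 6 and 1 UMIs. Here too clusters differed, with 38 control and 1 induced cells in N14 and 1 and 24 in N16, where Tcf7l2 stood at 41.6 CPM in control N14 and 287 CPM in induced N16. In N8, the mural-like cluster with at least 20 cells of each library, led by Rgs5 and Acta2 (52 and 46 cells), Tcf7l2 was 40.2 and 61.1 CPM (log2 ratio 0.60, interval -0.41 to 1.56), while 3 of 9 genes were past 2-fold, against 30.8% of all. These were Apcdd1, at 323 and 130.4 CPM (log2 ratio -1.31, interval -1.89 to -0.77), Tcf7l1, at 56.01 and 118 CPM (log2 ratio 1.08, interval 0.33 to 1.81), and Lgr4, at 18.7 and 44.8 CPM on 13 and 11 UMIs (log2 ratio 1.26, interval -0.04 to 2.54). In melanocyte-like cells (79 and 238) Nkd1 alone of 8 genes was past 2-fold (8.67% of all), at 47.2 CPM (34.5 to 62.9) in the control library and 112 CPM (97.4 to 128) in the induced library (log2 ratio 1.24, interval 0.78 to 1.74). Lef1 was 41.02 and 19.99 CPM in them (log2 ratio -1.04, interval -1.71 to -0.36), but in N1, the cluster with at least 20 cells of both libraries (61 and 165), it was 29.04 and 21.6 CPM on 17 and 26 UMIs, with intervals that overlapped. Over the class Axin2 was 24.6 and 44.1 CPM (log2 ratio 0.84, interval 0.17 to 1.56). 

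Endothelial-like cells (62 control and 60 induced, all in cluster N6) had 4 of 9 genes past 2-fold, all lower in the induced library, against 19.2% of all genes with a mean of 5 CPM. Axin2 stood at 29.2 and 8.17 CPM, on 33 and 6 UMIs (log2 ratio -1.84, interval -3.38 to -0.57). Lgr4 had 13 and 1 UMIs, Nkd1 9 and 2 UMIs and Lef1 11 and 2 UMIs, so all 4 rest on few molecules. Tcf7l2, better counted in these cells, was 117 and 154 CPM (log2 ratio 0.40, interval 0.02 to 0.77), and Ctnnb1 621 and 446 CPM (log2 ratio -0.48, interval -0.67 to -0.29).

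**Figure D4:**
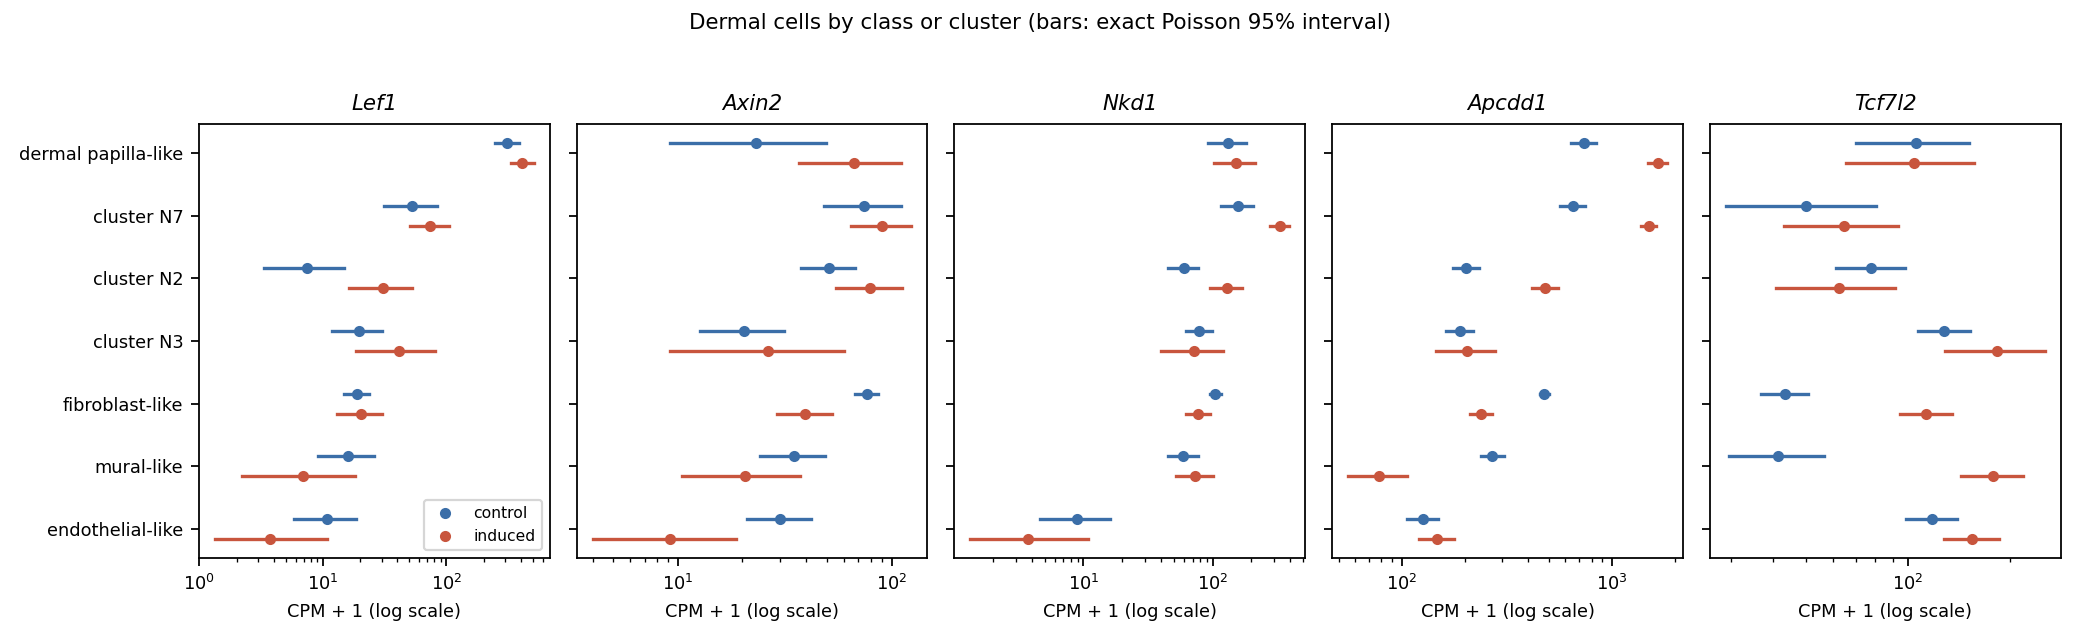
Level (CPM plus 1, log scale) of 5 genes in dermal classes and clusters of the control (blue) and induced (red) libraries, with exact Poisson 95% intervals as bars. Apcdd1 is higher in the induced library in dermal papilla-like cells and clusters N7 and N2 and lower in the fibroblast-like and mural-like classes; Tcf7l2 is higher in the fibroblast-like class, and its intervals overlap in cluster N2.

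Shares of cells with a UMI were taken after thinning each cell to 2000 UMIs. A Lef1 UMI was found in 3.79% (2.61 to 5.31) of control and 1.82% (1.21 to 2.61) of induced basal-like cells (26.5% and 19.2% without thinning), and in 1.24% (0.736 to 1.95) and 3.35% (2.40 to 4.53) of outer root sheath-like cells (7.60% and 23.2% without thinning). The intervals did not overlap in the outer root sheath and met at their ends in the basal class. As background, in the class of lowest share, 0 of 128 thinned control spinous-like cells had one, which allows up to 2.34% (3 cells of those counted), and 0 of 112 induced granular-like cells, which allows up to 2.68%, with medians of 39946.5 and 56734 UMIs before thinning against 18669.5 and 25677 in basal-like cells. Without thinning the background shares were 3.12% and 1.77%. The thinned shares of induced basal-like and control outer root sheath-like cells lie under these limits and cannot be told from background. By summed level, induced basal-like cells (9.30 CPM) stood above induced spinous-like cells (0.161 CPM). Control outer root sheath-like cells (9.20 CPM) stood above control spinous-like cells (1.03 CPM). Dermal papilla-like cells had Lef1 in 39.5% (24.98 to 55.6) and 53.8% (37.2 to 69.9), over the 43 of 43 control and 39 of 85 induced cells that reached the depth (74.4% and 62.4% without thinning).

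Tcf7l2 was found in 33.5% (31.1 to 36.03) of control and 21.00% (18.7 to 23.4) of induced outer root sheath-like cells after thinning (88.2% and 76.3% without), against 1.56% of control spinous-like cells. Apcdd1 was found in 21.1% (18.4 to 24.00) and 10.3% (8.84 to 11.9) of basal-like cells (82.2% and 63.7% without thinning), against 1.27% and 0% of melanocyte-like cells, which had medians of 10156 and 7522.5 UMIs. Genes found in the same cells were few at this depth. In the control epithelium 32.04% (25.7 to 38.9) of cells with Tcf7l1 also had Tcf7l2, against 19.6% of the rest, but inside the outer root sheath-like class the values were 35.2% and 33.3%.

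Other genes of the pathway were read from 5 lists. Over all epithelial cells, 2 of the 12 receptor genes with a mean of 5 CPM (14 listed) were past 2-fold, where 8.6% of all such genes were past it either way. They were Fzd2 at 57.3 and 26.2 CPM (log2 ratio -1.13, interval -1.20 to -1.06) and Fzd7 at 47.7 and 17.2 CPM (log2 ratio -1.47, interval -1.55 to -1.38), both Wnt receptors and both lower in the induced library. No gene of the other lists was past 2-fold, among 9 of 9 genes of the destruction complex and relay, 12 of 13 nuclear co-factors, 6 of 11 other response genes and 5 of 6 junction partners that reached the mean. The lists' median log2 ratios (CPM plus 2) were -0.03, -0.14, -0.18, -0.22 and 0.38 in that order, beside -0.10 for all genes. Fzd2 differed in the outer root sheath-like cells (146 and 69.8 CPM) and hardly in the basal-like cells (14.4 and 14.5 CPM). Over the epithelium Lrp6, the co-receptor, stood at 59.6 and 43.4 CPM and the stem cell receptor Lgr6 at 57.8 and 35.01 CPM. Lrp6 was 35.6 and 36.5 CPM in basal-like and 84.6 and 65.4 CPM in outer root sheath-like cells. Lgr6 was 31.7 and 26.1 CPM in basal-like cells and hardly differed in outer root sheath-like cells (79.5 and 79.1 CPM).

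In the destruction complex the kinase gene Gsk3b was 182 and 122 CPM (log2 ratio -0.58, interval -0.61 to -0.54), with Csnk1a1 at 383 and 363 CPM and Gsk3a at 61.3 and 53.2 CPM. Of the co-factors, Ctnnbip1, which blocks the binding of beta-catenin to Tcf proteins, was 93.8 and 150.3 CPM over the epithelium but 87.5 and 107 CPM in basal-like and 91.6 and 77.5 CPM in outer root sheath-like cells. Tle5 stood at 204 and 202 CPM and Ctbp1 at 122 and 123 CPM. Among response genes the cell cycle gene Ccnd1 was 153 and 81.4 CPM (log2 ratio -0.92, interval -0.96 to -0.87), Myc 41.7 and 33.96 CPM and Cd44 150.00 and 134 CPM. By class the log2 ratio of Ccnd1 was -0.65 in basal-like and -0.51 in outer root sheath-like cells. The junction partners Jup (324 and 466 CPM, log2 ratio 0.52, interval 0.50 to 0.54) and Cdh1 (139.6 and 169 CPM) were higher in the induced epithelium and Ctnna1 stood at 172 and 167 CPM. By class, Jup was 326 and 347 CPM in basal-like and 156 and 190 CPM in outer root sheath-like cells. Cdh1 was lower in induced basal-like cells (157 and 148 CPM, log2 ratio -0.09, interval -0.16 to -0.03) and higher in induced outer root sheath-like cells (115 and 151 CPM).

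By class, naming genes chosen after their values were seen, the basal-like cells had Fzd3 (10.98 and 28.4 CPM) and Ctbp2 (9.85 and 22.8 CPM) past 2-fold higher and Bambi (9.13 and 2.62 CPM) lower in the induced library. They are 1 of 9 receptor genes, 1 of 12 co-factors and 1 of 6 other response genes with a mean of 5 CPM, against 7.3% of all such genes, and none of 9 relay genes or 5 junction partners was past 2-fold. In outer root sheath-like cells the genes past 2-fold were Fzd10 (9.43 and 21.2 CPM), Wif1 (1.41 and 19.1 CPM) and Cdh3 (71.7 and 146 CPM), all higher, and Fzd2 and Bambi (21.6 and 6.76 CPM), both lower. They are 2 of 12 receptor genes, 2 of 7 other response genes and 1 of 5 junction partners, against 8.18% of all genes, and none of 9 relay genes or 12 co-factors was past 2-fold. In cluster N2, where 15.6% of all genes were past 2-fold either way, 3 of the 7 other response genes with a mean of 5 CPM were past 2-fold higher, Nkd2 (72.6 and 191 CPM), Ccnd1 (25.6 and 71.2 CPM) and Wif1 (65.1 and 336 CPM). Of the other lists there, 2 of 7 receptor genes were past 2-fold (Fzd7 higher, Lgr5 lower), 2 of 13 co-factors (Ctbp2 higher, Cby1 lower), 1 of 3 junction partners (Jup, higher) and none of 9 relay genes. The median log2 ratio of the 7 response genes (CPM plus 2) was 0.83, beside 0.12 for all genes of the cluster.

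Likeness of pattern was measured as Pearson's r of log2(CPM plus 5) over 20 points, each a class of 1 library with at least 50 cells, among 10842 genes that reached 20 CPM in a point. Points of 1 library share its depth and free RNA, so r is a description. Most like Lef1 were Thada (0.90), Zfp760 (0.88) and Tex9 (0.87), most like Tcf7 Zfp346 (0.94), Fchsd2 (0.94) and 5730455P16Rik (0.94), and most like Axin2 Lnpk (0.80), Ccdc134 (0.80) and Klhdc3 (0.79). The 3 genes listed for Lef1 and the 3 for Tcf7 were all highest in induced dermal papilla-like cells, the class where Lef1 and Tcf7 are highest. Their levels there rest on 5 to 34 UMIs, few molecules of 1 class. Ccdc134 and Klhdc3, listed for Axin2, were also highest there, on 5 and 9 UMIs, as was Zfp740, listed for Tcf7l2, on 16. How far the place of these genes in the list depends on that class was not tested. Most like Tcf7l1 were Ski (0.91), Cald1 (0.90) and Peak1 (0.89), and most like Tcf7l2 Aplp2 (0.89), Dleu2 (0.89) and Zfp740 (0.89). Among the 10 genes, Tcf7 and Nkd1 (0.83), Tcf7l1 and Tcf7l2 (0.81), Lef1 and Tcf7 (0.78) and Axin2 and Nkd1 (0.71) were the 4 closest pairs, and Nkd1 and Rnf43 (-0.51) ran against each other.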

How the data were processed

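Droplet UMI counts per gene and barcode were deposited by the authors as filtered matrices, 1 a library; per the submitters' processing notes they were made with Cell Ranger 6.0.0 on mm10. The counts were used as deposited. Barcodes with at least 1000 UMIs, 500 genes and under 15% mitochondrial UMIs were kept, and the 7% with the highest Scrublet scores were removed in each library, since the automatic cut marked only 3 and 1. Cells of both libraries were clustered jointly (scanpy 1.11.5, leidenalg 0.10.2) on 2000 variable genes without the 10 members. Epithelial cells were centred per library and merged by mutual nearest neighbours. Non-epithelial cells were clustered without centring or merging. A cluster was called X-like from at least 3 markers, and names and sizes may differ from the authors' own. Levels are summed UMIs per 1000000 (CPM); ratios of summed counts have exact 95% intervals (scipy 1.17.1), and a gene with a mean of at least 5 CPM was past 2-fold when the ratio of CPM plus 2 was. Alternatives changed doublet removal, the cell filter, scaling, the CPM added, the weight of cells and the clustering. The 2-fold call and the ratio interval were tested on simulated Poisson counts. Filtering, doublet removal, clustering, naming and thinning were not simulated. The 10 members and all lists were chosen with earlier results of these data known. Named beside the members were the 3 genes of each Wnt list with the highest mean CPM in all epithelial cells, any of a list past 2-fold there with 20 CPM in 1 library, and the 3 genes most like each of 5 members in pattern. Other list genes past 2-fold in a class or cluster were named after their values were seen. With 1 library a group no p-value was computed, and no separate animals stand behind an interval.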

Additional observations from a re-analysis of the deposited data

Results flagged for a closer look

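Log2 ratios of induced over control (from summed CPM) were set side by side for basal epidermal-like against outer root sheath-like cells and for basal epidermal-like against dermal papilla-like cells. In these pairs they lay on opposite sides of 0 for 4 of the genes, with intervals that left out 0 in both classes. They were 3 of 9 genes with a mean of 5 CPM in the first pair, where 7.32% of all such genes did so, and 2 of 8 in the second, where 6.09% did. The 2 pairs were not among the comparisons planned in advance, so these counts describe the 2 pairs only. Other pairs of classes were not set side by side in this way. None of these differences between classes was tested, since each group is 1 library. Lef1 was -1.24 in basal epidermal-like and 1.05 in outer root sheath-like cells, a difference of 2.29. Tcf7l1 was 0.54 and -0.82 in the same classes, a difference of -1.36, and Axin2 -0.62 and 0.39, a difference of 1.01. Dermal papilla-like cells stood apart from basal epidermal-like cells for Axin2, at 1.55, a difference of 2.17, and for Apcdd1, at 1.17 against -1.48, a difference of 2.65. The Axin2 value of dermal papilla-like cells rests on 6 and 14 UMIs.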

How the results depend on the processing

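No paired analysis was possible because each group is 1 library, and for the same reason no replicate could be left out. Over all epithelial cells the count of genes past 2-fold, 0 as reported, was 1 (Tcf7l2) with the stricter cell filter, with 0.5 CPM added and, chosen after seeing the data, without sebaceous gland-like cells. In fibroblast-like cells the count, 2 as reported, was 1 with doublets kept (Lgr4), with the mean of per-cell CPM (Tcf7l2) and with 10 CPM added (Tcf7l2), and 0 with each library clustered by itself. With the cells of cluster N2 only, also chosen after seeing the data, the log2 ratio of Tcf7l2 was -0.32. Values of single genes stayed within their counting interval in 44 of 50 alternatives in basal-like, 39 of 50 in spinous-like, 29 of 50 in outer root sheath-like, 29 of 50 in upper follicle-like, 43 of 80 in all epithelial and 53 of 80 in fibroblast-like cells. The sign turned in 1, 5, 5, 13, 8 and 15 of them, in that order. Thinning moved 38 of 40 shares of cells. The share of all genes past 2-fold in the epithelium was 3.79% with 10 CPM added and 4.89% with no filter on the mean. Depth limits dermal papilla-like and endothelial-like cells, where Axin2 rests on 6 and 14 UMIs and 33 and 6 UMIs. The cause of these shifts was not tested.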
